A study of Mus musculus with 6 samples.

Results

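Chd4 binding in mouse neural stem cells under Seh1 silencing was compared with Chd4 binding in the library labelled siSCR, using every peak of the deposited lists of both libraries. The members were chosen by sample label alone, and number 29541 of the 97783 peaks of the series: 26935 in siSeh1 and 2606 in siSCR. The series profiles the nucleoporin Seh1 and the remodeller Chd4 by chromatin immunoprecipitation and sequencing (ChIP-seq) in 6 libraries of primary neural stem cells grown from newborn mouse cortex. Its title places it in a study of Seh1, neurogenesis and transcription. Both libraries compared here carry the genotype label wild type and the treatment label growth medium, and the silencing appears only in the sample names, so siSCR is read as the control and siSeh1 as silencing of Seh1. The sources used here do not state the agent or the time of silencing. Each group is 1 library, so no difference between them has a replicate check and no p-value is given. Intervals are exact 95% Clopper-Pearson intervals and cover counting error only. Peak lists hold no expression level, so the labelled cell type was not checked against marker expression.

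Chd4 is the motor subunit of NuRD, a complex for nucleosome remodelling and histone deacetylation that slides nucleosomes and removes histone acetyl groups at promoters and enhancers. In the developing cortex NuRD takes part in the switch of progenitors from division to differentiation. Seh1 is a subunit of the Y-complex, the scaffold of the nuclear pore, and also of the GATOR2 complex at the lysosome. The CCAAT box is a promoter element bound by the trimeric factor NF-Y, and the GC box one bound by factors of the Sp and Klf families.

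The promoter sequences of 8 genes are shown first, because a short motif, described with its counts further on, lay under most promoter summits of high score. Each run is 150 bases upstream of the start site around or beside the Chd4 summit, written 5′ to 3′ on the gene's strand, from RefSeq windows on GRCm38.p6, which has the coordinates of mm10. Capitals mark CCAAT or its reverse complement ATTGG. The first 3 genes had a promoter peak in both lists, the next 3 in siSeh1 only, and Hsp90b1 in siSCR only by its deposited gene name. These 7 are the highest-ranked genes of their class whose summit lay in a RefSeq window, and Hspa5 was added after its values were seen. In that order the runs lie at chr13:51645082-51645231 (plus strand), chr2:24919629-24919778 (minus strand), chr2:24975099-24975248 (minus strand), chr2:25546982-25547131 (minus strand), chr11:71019406-71019555 (plus strand), chr8:88696878-88697027 (plus strand), chr10:86705545-86705694 (minus strand) and chr2:34771840-34771989 (plus strand).
Cks2: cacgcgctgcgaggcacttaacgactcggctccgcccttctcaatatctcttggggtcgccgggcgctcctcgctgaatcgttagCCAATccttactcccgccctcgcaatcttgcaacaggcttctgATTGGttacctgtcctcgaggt
Ehmt1: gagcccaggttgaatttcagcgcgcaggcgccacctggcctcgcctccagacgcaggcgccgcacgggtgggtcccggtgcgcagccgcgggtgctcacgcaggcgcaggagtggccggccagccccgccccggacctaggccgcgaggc
Mrpl41: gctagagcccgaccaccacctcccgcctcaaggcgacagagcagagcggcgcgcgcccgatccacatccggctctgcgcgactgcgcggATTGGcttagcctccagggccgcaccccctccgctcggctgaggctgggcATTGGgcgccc
Traf2: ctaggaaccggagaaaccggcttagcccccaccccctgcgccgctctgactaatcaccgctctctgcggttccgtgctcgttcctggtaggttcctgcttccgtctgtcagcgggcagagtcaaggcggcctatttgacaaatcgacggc
Mis12: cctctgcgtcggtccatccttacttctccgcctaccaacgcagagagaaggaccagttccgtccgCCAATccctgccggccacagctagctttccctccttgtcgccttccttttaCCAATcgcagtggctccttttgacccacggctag
Cyld: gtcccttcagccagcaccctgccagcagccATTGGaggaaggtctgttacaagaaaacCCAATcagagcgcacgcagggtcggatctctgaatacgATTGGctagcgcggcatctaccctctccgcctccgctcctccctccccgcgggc
Hsp90b1: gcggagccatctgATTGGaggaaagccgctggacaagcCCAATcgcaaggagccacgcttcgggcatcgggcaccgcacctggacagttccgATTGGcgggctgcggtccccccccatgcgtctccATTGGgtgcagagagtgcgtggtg
Hspa5: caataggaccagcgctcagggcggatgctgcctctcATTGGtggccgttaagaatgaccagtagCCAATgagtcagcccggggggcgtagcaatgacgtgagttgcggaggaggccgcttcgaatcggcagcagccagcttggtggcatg
Cks2 encodes a small subunit of cyclin-dependent kinases, Mrpl41 a mitochondrial ribosomal protein, Mis12 a kinetochore protein, Cyld a deubiquitinase, and Hsp90b1 and Hspa5 the chaperones GRP94 and BiP of the endoplasmic reticulum (ER). Their runs hold 2 to 4 CCAAT boxes each. The runs of Ehmt1, a histone H3 lysine 9 methyltransferase, and of Traf2, an adaptor of tumour necrosis factor receptors, hold 0. In the run of Hsp90b1 the second box is followed after 9 bases by CCACG, the arrangement known as the ER stress element.

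Promoter peaks of Chd4 covered 384 genes in siSCR and 2750 in siSeh1, where a promoter peak is a summit within 1 kb of the nearest annotated start site and each gene is counted once. Both lists named 307 genes, siSeh1 alone 2443 and siSCR alone 77. Of the 21900 protein-coding genes of the RefSeq table, 1.63% had a promoter peak in siSCR, 11.8% in siSeh1, 1.34% in both, 10.5% in siSeh1 and not siSCR, and 0.297% in siSCR and not siSeh1. Genes in both lists stood high in each: they took 93 of the first 100 places by promoter score in siSCR and 71 of the first 100 in siSeh1. The score is the value the authors' peak caller gave each peak, on a scale that the sources used here leave unstated. It is used to order peaks within 1 list, and as a common minimum of 5 in an alternative count. Scores of the 2 lists printed side by side need not share a scale and are not read as a change in binding.

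Among genes in both lists, Sox11, a transcription factor of newborn neurons, came first in each, with a score of 59.1 in siSCR and 149 in siSeh1. Its summits lay 528 bp (siSCR) and 700 bp (siSeh1) downstream of the start site, in its single exon. Cks2 came next in siSeh1 with a score of 51.8 and had 7.09 in siSCR. Ehmt1 had scores of 11.8 in siSCR and 38.7 in siSeh1, with summits 3 bp apart. Mrpl41 had scores of 6.68 in siSCR and 35 in siSeh1, with summits 2 bp apart. Denr, a factor for restarting translation, stood near the top of both lists, with 17.9 in siSCR and 33.1 in siSeh1. The nuclear import receptors Kpna4 and Kpnb1, the deadenylase scaffold Cnot1 and Qrich1 were also among the first 10, with siSeh1 scores of 31.8 to 35. The order within the lists agreed only in part: over the 307 genes Spearman's rho between the 2 scores was 0.38, given as a description, since genes are not independent and share their libraries.

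**Figure D1:**
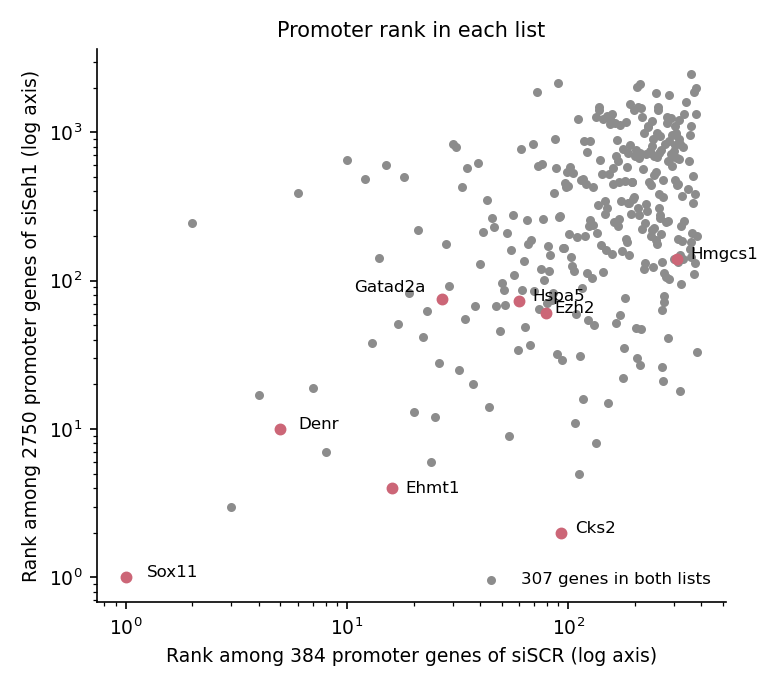
Rank of the 307 genes found at promoters in both lists, among 384 promoter genes of siSCR (x, log axis) and 2750 of siSeh1 (y, log axis); each point is a gene and named genes are in red. Sox11 is first in both, Denr is within the first 10 of each and Ehmt1 within the first 20 of each.

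The siSeh1-only genes were led by Traf2 (score 27.8), Mis12 (27.2) and Cyld (25.2). After them came Rbm15, which directs RNA methylation (24), Fdft1, squalene synthase (24), the kinase Gsk3b (23.1), the hyaluronan receptor Hmmr (23), Rcl1 (22.7), Rrbp1 (22.1) and Zfp526 (21.5). For 3 of these 10, Mis12, Gsk3b and Hmmr, siSCR also had a summit under 240 bp away that its file credits to the neighbouring gene on the shared promoter. The Mis12 summit lay 28 bp from the siSCR summit of Derl2, an ER-associated degradation factor, with scores of 27.2 and 13.2. The Hmmr summit lay 47 bp from that of Nudcd2, and the Gsk3b summit 190 bp from that of BC031361. Of the 2443 siSeh1-only genes 17 had such a siSCR summit and 2426 did not.

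Of the 77 siSCR-only genes, 16 had a siSeh1 summit under 240 bp away and 61 did not. The top of that class was mostly of the first kind. Hsp90b1, which led it with a score of 14.5, lay 31 bp from a siSeh1 summit of score 17.5 credited to Ttc41. Derl2 (13.2), Nudcd2 (8.39), Chtf18 (8.09), Ndufaf2 (5.87) and Tdrkh (5.86) had partners in the same way, at 28, 47, 73, 73 and 28 bp. Taf4, a TFIID subunit (8.39), Ggct (7.64), the pseudogene Speer4cos (6.41) and the Mediator kinase Cdk19 (6.18) had none, and their nearest siSeh1 summits lay 86797, 23744, 3107 and 116163 bp away. So 6 of these 10 places were also listed in siSeh1, under another gene name.

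Peak positions showed the same division between promoters and the rest. Summits under 240 bp apart were counted as shared, which held for 411 peaks: 15.8% of siSCR (14.4 to 17.2%) and 1.53% of siSeh1 (1.38 to 1.68%). At promoters, 318 of the 391 siSCR peaks were shared (81.3%, 77.1 to 85.1%). Away from promoters 93 of 2215 were (4.2%, 3.4 to 5.12%). Shared summits lay close together, a median of 39.5 bp apart at promoters and 54 bp elsewhere. Just inside the limit were the pairs at Srgap2 (224 bp) and Gm16793 (225 bp), and just outside it those at Gm15501 (242 bp) and Epha6 (243 bp).

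Within each list, promoter peaks and shared peaks were concentrated at the top. Of the first 100 siSeh1 peaks 81% lay at promoters and 76% were shared with siSCR. Ranks 101 to 500 were mostly at promoters (86.2%) with 35.2% shared, and ranks 501 to 1000 had 80.8% at promoters and 16.8% shared. From rank 10001 on, 4.52% of siSeh1 peaks lay at promoters and 0.171% were shared. In siSCR 55% of the first 100 lay at promoters and 66% were shared, against 5.29% and 4.36% from rank 1001 on. Over whole lists the promoter share was 15% in siSCR (13.7 to 16.4%) and 10.5% in siSeh1 (10.1 to 10.8%), but with siSeh1 reduced to its 2606 highest-scoring peaks it was 53.2%, which turns the order.

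**Figure D2:**
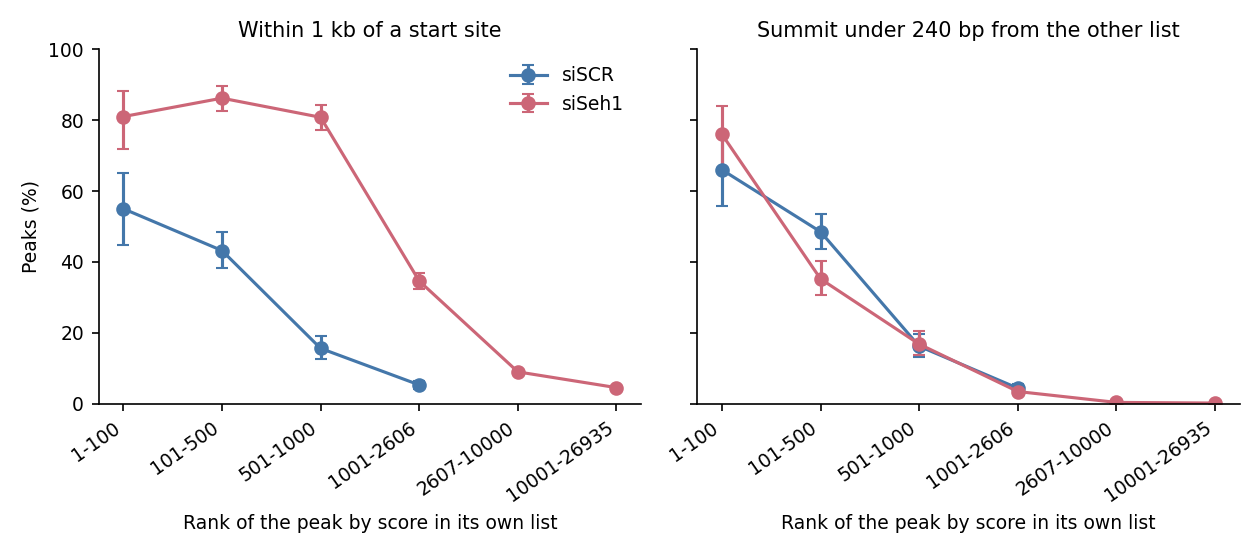
Percent of peaks within 1 kb of a start site (left) and percent with a summit under 240 bp from one of the other list (right), by rank of the peak in its own list; points are the 2 libraries, bars exact 95% intervals. The promoter share of siSeh1 stays between 80.8 and 86.2% through rank 1000 and is 34.6% at ranks 1001 to 2606, while that of siSCR is 55% in the first 100.

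Promoter summits sat just upstream of the start site. Their median position was -90 bp in siSCR and -64 bp in siSeh1. The stretch from 250 bp upstream to the start site held 69.6% of the siSCR promoter summits (64.7 to 74.1%) and 57.5% of the siSeh1 ones (55.6 to 59.3%). Shared summits fell there in 77.7% (siSCR) and 79.6% (siSeh1) of cases. Unshared ones did so in 34.2% and 54.6%.

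**Figure D3:**
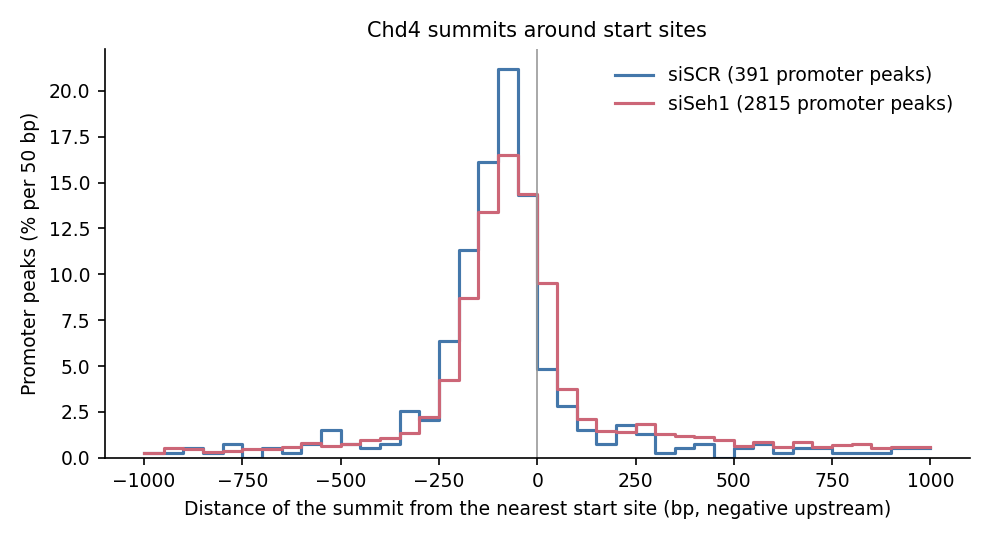
Distribution of Chd4 promoter summits around the nearest start site in 50 bp steps, as percent of the 391 siSCR and 2815 siSeh1 promoter peaks; negative distances are upstream. Both libraries peak between 100 and 50 bp upstream, and siSeh1 has more of its summits downstream of the start.

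CCAAT boxes lay under most Chd4 promoter summits of high rank in both libraries. RefSeq windows from 250 bases before to 50 after the start site were searched on both strands for CCAAT. Among genes named by both lists whose summit fell in such a window, 198 of 210 had the box (94.3%, 90.2 to 97%), and 79.5% had more than 1 copy. Over all 21263 windows of protein-coding genes 38.2% had it and 12.8% had more than 1 copy. Among windows with no Chd4 promoter peak in either list the share was 35%, and it was 26.4% in those with at least 20 CpG. The box was in 72.4% of siSeh1-only windows (913 of 1261) and in 86.7% of siSCR-only windows (26 of 30). Across the siSeh1 ranking its share was 94.3% in the first 100 promoter genes, 96.9% in ranks 101 to 300, 87.5% in ranks 301 to 600, 84.8% in ranks 601 to 1200 and 59.8% beyond. The siSeh1-only genes followed the same order, with 98.4% in their first 100 (62 of 63) and 55% after rank 1200. In siSCR it was 97, 91.4 and 92% in ranks 1 to 100, 101 to 200 and 201 to 384. These shares are of genes with the summit inside the window. With the nearest window taken wherever the summit lay, they were lower: 88% in both lists, 60.7% in siSeh1 only and 71.2% in siSCR only. Beyond rank 1200 of siSeh1 the share was then 49.5%.

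The GC box GGGCGG did not follow the ranking. It was in 78.6, 82.2, 78.1, 77.9 and 80% of the siSeh1 windows in the same rank classes, and in 80.1% of the CpG-rich windows with no Chd4 peak. Over all windows with no Chd4 peak it was in 42.9%. In genes of both lists the nearest CCAAT lay a median of 20 bp from the siSeh1 summit, with 85.4% within 50 bp. The nearest GC box lay a median of 41.5 bp away, with 55.7% within 50 bp. In siSeh1-only genes the medians were 23 bp for CCAAT and 35.5 bp for the GC box, with 74.6 and 61.6% within 50 bp. In siSCR-only genes the order turned, with 26 bp for CCAAT (65.4% within 50 bp, 26 windows) and 19.5 bp for the GC box (78.3%, 23 windows). More copies in a window bring the nearest one closer by number alone, and its part was not tested. The other motifs were also compared between windows of both lists and CpG-rich windows with no peak. The minimum of 20 CpG was set only for the windows with no peak. The rare ER stress element was in 4 of 210 (1.9%, 0.521 to 4.8%) against 3 of 5942 (0.0505%). The shares were 27.6% against 32.8% for CCGGAA (the ETS core), 11.4% against 12% for CACGTG (the E-box), 11.9% against 13.6% for TGACGT (cyclic AMP response), 2.38% against 3.74% for TATAAA, 10% against 6.82% for TTTGAA (cell cycle homology region) and 11% against 11.4% for GCGGGAA (an E2F site). Over all windows with no peak, whatever their CpG count, the shares were 18.3% for CCGGAA, 7.58% for CACGTG and 8.17% for TGACGT. They were 13.4% for TATAAA, 16.5% for TTTGAA and 5.5% for GCGGGAA. Among these motifs only TATAAA kept its order. These are letters in a window and not measured factor binding.

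**Figure D4:**
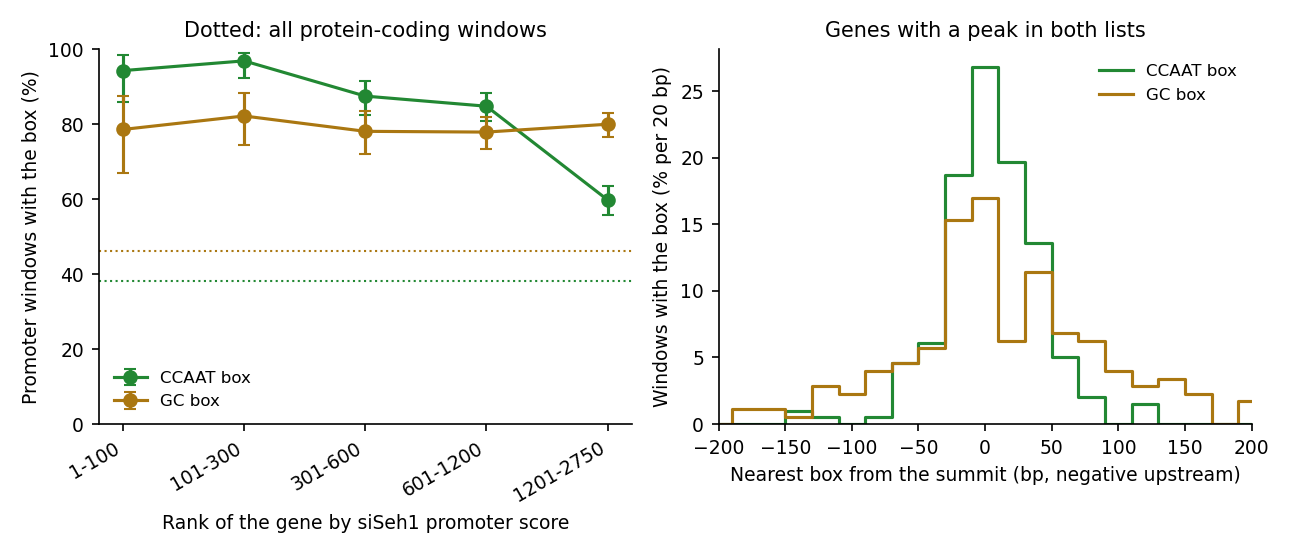
Left, percent of RefSeq promoter windows with a CCAAT box or a GC box by rank of the gene in siSeh1, with exact 95% intervals and the share of all protein-coding windows dotted; right, distance from the siSeh1 summit to the nearest box in windows of genes in both lists. The CCAAT share is 94.3% in the first 100 genes and 59.8% in the last class, the GC box share stays between 77.9 and 82.2%, and CCAAT boxes gather around the summit.

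Gene lists were read against the share of all protein-coding genes with a promoter peak, 1.63% in siSCR and 11.8% in siSeh1. The unfolded protein response and ER chaperones had the highest share in siSCR, 11 of 32 (34.4%), with 19 of 32 in siSeh1 (59.4%). The siSeh1 count leaves out Hsp90b1 and Derl2, whose siSeh1 summits, 31 and 28 bp from those of siSCR, are credited to Ttc41 and Mis12. Both lists named 9 members, among them Hspa5 (8.09 in siSCR, 20 in siSeh1), the disulphide isomerases Pdia4 (5.47 and 25.2) and P4hb (7.77 and 24.3), the stress sensor kinase Eif2ak3 (4.33 and 16.9) and the chaperone cofactor Dnajc3 (8.39 and 13.3). In siSeh1 only were 10 more, led by Creld2 (14.4), the chaperone Hyou1 (13.3) and Manf (12.2). All 17 members whose summit lay in a RefSeq window had CCAAT there, beside 75.7% of all windows with a Chd4 summit (1137 of 1501). The ER stress element, CCAAT, 9 bases and CCACG, was in 9 of the 17, and in 0.141% of all windows of protein-coding genes. Windows with a Chd4 summit held it in 4 of 210 (both lists), 5 of 1261 (siSeh1 only) and 1 of 30 (siSCR only). Most of those windows are therefore of this gene list, and the counts do not tell its genes from Chd4 binding.

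Sterol synthesis genes had the highest share in siSeh1, 21 of 28 (75%), against 5 of 28 in siSCR (17.9%). Those in both included Hmgcs1, a synthase of the mevalonate pathway, Msmo1, and the sterol regulators Insig1 and Srebf2, with siSCR scores of 3.62 to 5.87. Fdft1 (24), Mvk, mevalonate kinase (15.9), Stard4 (15.5) and Mvd (11.2) led the 16 listed in siSeh1 only. CCAAT was in all 10 windows with a summit, beside the same 75.7% of all windows with a Chd4 summit.

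Cell cycle genes were the next in siSeh1. Of 41 genes of G1 to S and DNA replication 22 had a peak in siSeh1 (53.7%) and 5 in siSCR (12.2%): the helicase subunit Mcm5 (8.17 in siSCR, 17.3 in siSeh1), the activators E2f1 (6.98 and 10.1) and E2f3 (6.55 and 7.04), the ribonucleotide reductase subunit Rrm2 (3.94 and 8.86) and Rpa2 (5.33 and 7.97). Of 39 genes of mitosis and the kinetochore 18 had one in siSeh1 (46.2%) and 4 in siSCR (10.3%), namely the spindle checkpoint kinase Ttk (6.61 and 30.4), Aurka (5.08 and 8.14), Cenpa (4.33 and 9.92) and Cenpf (5.6 and 5.41). CCAAT was in 16 of 16 mitotic and 7 of 11 replication windows with a summit, beside the 75.7% of all such windows, and the difference was not tested. Cyclin-dependent kinase inhibitors had 3 of 8 in siSeh1 and 1 of 8 in siSCR, and Cdkn2d was the gene in both.

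Of 74 BAF, Polycomb and NuRD genes 27 had a promoter peak, and 24 of these were in siSeh1 only (88.9%, 70.8 to 97.6%), near the 86.4% of all genes with a promoter peak in either list (2443 of 2827). The BAF and other CHD remodellers had 0 of 29 in siSCR and 12 of 29 in siSeh1 (41.4%), led by Chd6 (13), Smarca2 (9.06), Smarca5 (6.64), Chd8 (6.28) and Actl6a (6.28). CCAAT was in 3 of their 9 windows with a summit, below the 75.7% of all such windows, and the difference was not tested. Polycomb genes had 1 of 30 in siSCR, Ezh2 (7.53, with 21.1 in siSeh1), and 10 of 30 in siSeh1, among them Suz12 (11.8). Of 15 NuRD members, Gatad2a (9.7 and 19.9) and Mbd3 (4.15 and 8.29) were in both, and Rbbp7, Rbbp4 and Hdac1 in siSeh1 only. Splicing factors had 4 of 37 in siSCR, all hnRNP genes, and 14 of 37 in siSeh1. Heat shock chaperones had 0 and 9 of 27 and genes of amino acid stress 0 and 8 of 30.

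Among neural identity genes, 54 of 72 stem cell, neurogenic and oligodendrocyte genes had no promoter peak in either list. Most genes of any kind had none, since 11.8% of all protein-coding genes had one in siSeh1 and 1.63% in siSCR. Each of these neural lists had a siSeh1 share above that 11.8%. So did most of the other gene lists, including markers of microglia, endothelium and pericytes, so such a share is not particular to neural genes. Of the 18 neural genes with a peak 15 were in siSeh1 only (83.3%), near the 86.4% of all genes with a promoter peak in either list. Of 28 stem cell and progenitor factors, 2 were in both, among them Id2 (9.32 in siSCR, 17.8 in siSeh1). The Notch effector Hes1 (17.3), Otx1 (8.14), Sox2 (6.86), Lhx2 (6.28), Id4 (5.66) and Hey1 (3.41) were in siSeh1 only, and siSeh1 held 8 of 28 in all (28.6%). Neurogenic factors had 1 of 30 in siSCR (Sox11) and 5 of 30 in siSeh1 (16.7%). The oligodendrocyte list had 0 of 14 and 5 of 14, with Olig1 (9.31) highest, and astrocyte markers 0 of 12 in both. Markers of microglia, endothelium and pericytes had 0 and 2 of 14.

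Of the other lists, siSeh1 held 6 of 24 p53 targets (25%), 7 of 33 ERK response genes (21.2%), 5 of 30 nucleoporins (16.7%), 3 of 31 Notch, Wnt or Shh pathway members (9.68%), 2 of 24 genes of other tissues, 2 of 30 ribosomal protein genes and 1 of 20 Hox cluster genes. In siSCR the ERK list held Klf10, the pathway list Numb, and the other 5 lists held 0.

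**Figure D5:**
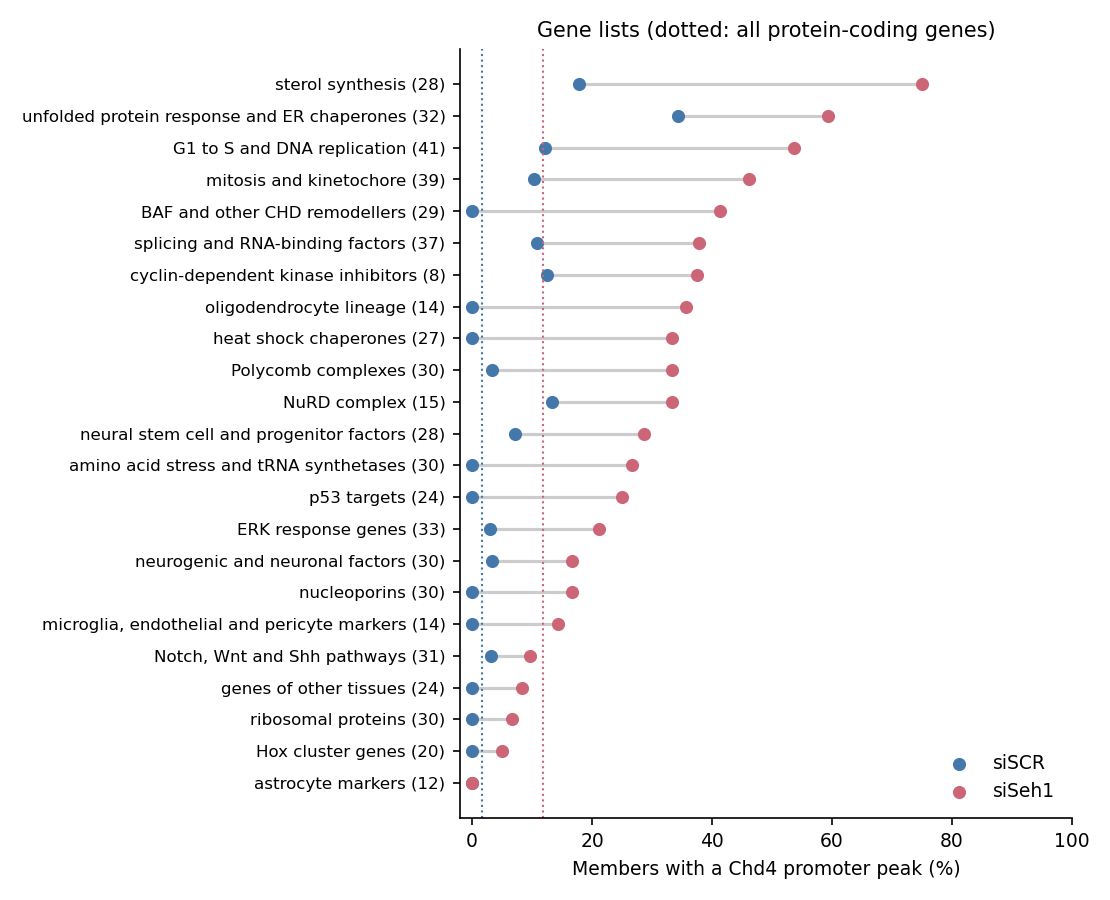
Percent of each gene list with a Chd4 promoter peak in siSCR and in siSeh1, list size in brackets; dotted lines are the 1.63% (siSCR) and 11.8% (siSeh1) of all protein-coding genes. Sterol synthesis reaches 75% in siSeh1 and the unfolded protein response 34.4% in siSCR, while Hox, ribosomal and astrocyte genes lie at or below the siSeh1 background.

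Away from promoters the lists had little in common apart from a few kinds of place. Of the siSCR peaks there, 10 of 12 in CpG islands and 10 of 17 in satellites were shared. In LINE elements 12 of 618 were (1.94%) and in LTR elements 7 of 462 (1.52%). Of the siSeh1 peaks there, 11 of 131 in CpG islands (8.4%) and 10 of 117 in satellites (8.55%) were shared. In LINE and LTR elements 0.239 and 0.24% of siSeh1 peaks were. The highest shared distal peak in siSeh1 lay in intergenic sequence at -33695 bp from the start site of Steap1 (16 in siSCR, 39.3 in siSeh1). Others were a CACAG simple repeat near Zfp825 (16 and 31.5), a CpG island in intron 1 of Fosb (5.08 and 24.1) and a G-rich stretch near Tmem125 (8.12 and 22.5). The third-highest siSCR peak, in an L1Md_T element in intron 1 of Ctnnd2 (26.8), had its nearest siSeh1 summit 10784 bp away.

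Repeats made up more of siSCR than of siSeh1. Their share was 49.5% in siSCR (47.6 to 51.4%) against 41.5% in siSeh1 (41 to 42.1%). The young LINE family L1Md_T held 6.64% of siSCR and 1.98% of siSeh1, and the IAPEz-int retrovirus 4.14% and 0.872%. Introns outside repeats held 11.3% of siSCR and 20% of siSeh1. Windows of 200 kb with at least 5 peaks numbered 30 in siSCR, with 11.6% of its peaks, and 946 in siSeh1, the longer list, with 20.3%. In siSeh1 the fullest were on the contig Un_JH584304 (60 peaks, 24 in siSCR) and at the start of chromosome 9 (33, 2 in siSCR). In siSCR, 4 windows around the Speer4 genes on chromosome 5 held 30, 24, 21 and 14 siSCR peaks and 4, 2, 1 and 2 siSeh1 peaks. One window at Gm12887 on chromosome 4 held 23 and 0, and 20 in the separate Ctrl library of Chd4. Reads in repeats can map to several places, and the sources used here do not state how they were treated; its part in these counts was not tested.

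The iKO library, of mutant genotype and treated with 4-hydroxytamoxifen, gave a separate Chd4 list. It is read as deletion of Seh1, so it is another perturbation of Seh1 and not a control. An iKO summit lay within 240 bp of 78.1% of the shared siSeh1 promoter summits (249 of 319) and of 19.1% of the unshared ones (476 of 2496). At matched rank the gap in percentage points was smaller, and it widened down the ranking. In the first 100 siSeh1 promoter peaks 93.2% of shared and 80.8% of unshared summits had one, and in ranks 101 to 300 86.2% and 71.7%. The shares were 71.9% and 42% in ranks 301 to 600, and 68.3% and 30% in ranks 601 to 1200. At the last ranks they were 48.4% and 7.32%. Sox11, first by promoter score in siSCR and siSeh1, had no promoter peak under its name in the iKO or Ctrl list. No Ctrl summit lay at any promoter summit of either library. The Ctrl list of Chd4 held 1154 peaks and the iKO list 21294, and the part of list length in these shares was not tested.

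Chd4 and Seh1l, the gene of Seh1, carried peaks inside the gene body, and Cdkn1a, encoding p21, had 0 in both. Chd4 held 7 peaks in siSCR and 8 in siSeh1, of which 6 and 7 lay in exons and 4 were shared. Seh1l held 1 in siSCR and 3 in siSeh1, all in exons. Over whole lists the deposited class exon held 1.65% of siSCR peaks and 1.83% of siSeh1 peaks. The peaks of these 2 genes are thus unlike the rest in place, and the reason was not tested. The exon 4 summits lay 19 bp apart, with scores of 7.79 (rank 119 of siSCR) and 23.2 (rank 50 of siSeh1). Peaks do not measure the level of Seh1, so the silencing itself was not checked here.

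Between the lists, siSeh1 had 10.3 times the peaks of siSCR, and 6.24 times at a score of at least 5 (2865 and 459 peaks). Scores of separate lists need not share a scale, so this minimum may not be a common stringency. Total reads are unknown, so Chd4 occupancy, sequencing depth and immunoprecipitation yield cannot be told apart as sources of the difference in length, which every siSeh1-only count carries.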

How the data were processed

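The data are deposited peak lists from ChIP-seq, 1 per library, in which each peak is a single-base summit with a score, an annotation, the distance to the nearest start site and a gene name. The score is the value the authors deposited for each peak, on a scale the sources used here do not state. Coordinates are mm10, per the file headers; the submitters' processing notes name Bowtie2 and HOMER, and human builds, which were not used. Depth is unknown, so no interval for depth could be made.

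Each library was taken as its own group by title. Peaks were shared when summits lay under 240 bp apart. Promoter genes were counted once at their highest-scoring peak within 1 kb. The overlap code was tested on simulated lists, and bedtools 2.31.1 gave the same 411 shared siSCR peaks. Python 3.11.15, pandas 2.3.3, numpy 2.4.6 and scipy 1.17.1 were used. Of the gene identifiers 99.8% matched the RefSeq table, and all but 3 of 607 listed symbols did. RefSeq windows were found for 259 of 307, 1983 of 2443 and 58 of 77 promoter genes, and the summit lay inside for 210, 1261 and 30.

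Named genes were the first 10 by score of each class without predicted or microRNA genes, the nearest genes of the highest distal peaks, up to 8 members of each list, and Seh1l, Chd4 and Cdkn1a. Msmo1, Srebf2, E2f3, Rpa2 and Cenpf fall outside it and were named after their values were seen. The members, gene lists and rules were chosen with earlier results of these data known. Alternatives were other summit distances, promoter definitions, chromosomes, repeats, list lengths, score minimums and gene types. The authors' other columns were not used. A few genes that the rule names are not reported here.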

Additional observations from a re-analysis of the deposited data

How the results depend on the processing

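No paired analysis was possible because each group is 1 library and no replicate number links them. Of 53 recomputed values, 26 stayed within the main interval or within 1.5 times the main count. With summits under 100, 500 and 1000 bp, 13.3, 17.3 and 18.6% of siSCR peaks were shared, and 1.29 and 1.87% of siSeh1 peaks at 100 and 1000 bp. With promoters within 500 bp, within 2500 bp or by the deposited class, the promoter share was 13.6, 17.1 and 13.5% in siSCR and 9.23, 13.2 and 8.8% in siSeh1. On assembled chromosomes without X and Y, which also leaves out unplaced contigs, it was 10.9% in siSeh1. Without repeats, 28% of siSCR and 2.34% of siSeh1 peaks were shared, and promoters held 29.6 and 17.7%. At a score of at least 5, 48.8 and 7.82% were shared, promoters held 47.1 and 49.4%, and 184 genes were in both lists, 1209 in siSeh1 only and 30 in siSCR only. With siSeh1 reduced to the length of siSCR, 13.7% of each list was shared, promoters held 53.2% of siSeh1 peaks, and 1076 genes were in siSeh1 only. Scores of separate lists need not share a scale, so a common minimum may not be a common stringency. The cause of these changes was not tested. Leaving out summits credited to a partner gene, chosen after seeing the data, gave 2426 siSeh1-only and 61 siSCR-only genes.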
